A study of Saccharomyces cerevisiae with 9 samples.

Results

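The thioredoxin and peroxiredoxin system of budding yeast, Saccharomyces cerevisiae, was followed through freezing and thawing by the array signals of 10 genes. They were the thioredoxins TRX1 (YLR043C), TRX2 (YGR209C) and TRX3 (YCR083W), the thioredoxin reductases TRR1 (YDR353W) and TRR2 (YHR106W), and the peroxiredoxins TSA1 (YML028W), TSA2 (YDR453C), AHP1 (YLR109W), PRX1 (YBL064C) and DOT5 (YIL010W). The genes were taken by name from the 5449 S. cerevisiae genes listed with a probe set, and each of the 10 had 1 probe set. The study, which names copper homeostasis in its title, compared cells before and after storage at -30 °C. All cells were BY4741, a laboratory strain of mating type a in which HIS3, LEU2, MET17 and URA3 are deleted or disrupted in every group. They were grown at 30 °C in the rich medium YPD to log phase (OD600 of 1), washed, and resuspended in distilled water. The 3 unfrozen samples were taken at this point, and the 3 samples frozen for 24 h and the 3 frozen for 48 h were then thawed for 10 min in a 30 °C water bath. The unfrozen cells had no such wait or thaw, so freezing, storage and thawing cannot be told apart.

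Peroxiredoxins break down hydrogen peroxide and organic hydroperoxides with a reactive cysteine, which is oxidised in the process. Thioredoxin, a small protein with a pair of active-site cysteines, reduces the peroxiredoxin again, and thioredoxin reductase recharges thioredoxin with electrons from NADPH. In yeast, TRX1, TRX2 and TRR1 serve the cytosol together with the peroxiredoxins TSA1, TSA2 and AHP1, TRX3, TRR2 and PRX1 act in mitochondria, and DOT5 is a nuclear thiol peroxidase. Several of these genes, TRX2, TRR1, TSA1 and AHP1 among them, are known targets of the peroxide-responsive activator Yap1.

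Signals are given as log2 of the deposited intensity once all arrays shared a single median of their S. cerevisiae probe sets, and levels are not compared between genes. They are relative to the rest of each array's RNA, so fewer cells with a transcript and less of it per cell cannot be told apart. Before this scaling that median ran from 201 to 726, and the 2 brightest arrays were frozen 24 h replicate 3 (679) and frozen 48 h replicate 3 (726). The median of 17 ribosomal RNA control probe sets was higher on each of the 6 frozen arrays (7.64 to 10.43 on the log2 scale) than on the 3 unfrozen ones (5.45 to 7.02). By an exact two-sided permutation test this rRNA signal had p = 0.1 at 24 h and at 48 h, which is the lowest p possible with groups of 3. URA3, MET17 and LEU2 lay at 0.68, 2.04 and 2.62, at percentiles 56.2, 92.7 and 97.8 of fission yeast probe sets, which serve as background. HIS3 lay at 9.55, above all of them (percentile 100), which goes against a full deletion. Whether its probe set lies in the part of HIS3 that the strain lacks is not given in the sources used here, so it does not check the strain. Of the mating-type genes, STE2, BAR1, MFA1 and MFA2 of a cells lay between 10.10 and 12.20. The alpha-cell genes STE3, MF(ALPHA)1 and MF(ALPHA)2 lay at 5.83, 2.42 and 4.42, at percentiles 100, 96.4 and 99.94 of the fission yeast probe sets. By this measure the alpha-cell genes were not all at background. The labels speak both of independent triplicates and of a pair of independent experiments. Replicate 3 of each group was registered apart from replicates 1 and 2, and no label used here says whether it was a separate experiment. The p-values therefore reflect how far these arrays spread, and part of that spread may be technical.

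Against unfrozen cells, 0 of the 10 genes changed after 24 h frozen and 0 after 48 h (limma, Benjamini-Hochberg adjusted p under 0.05 over 5396 genes), where 1.00% and 2.91% of all genes were called. At an unadjusted p under 0.05, limma gave 3 of 10 at 24 h (TRR2, PRX1 and DOT5) and 5 of 10 at 48 h (these and TRX3 and AHP1), all of them above unfrozen. Over all genes tested the shares at that level were 10.7% and 16.4%. Higher values made up 6.80% and 9.97%, and lower values, with 0 members, 3.93% and 6.45%. The median difference of the 10 genes was 0.41 at 24 h and 0.45 at 48 h on the log2 scale, against -0.02 and -0.03 for all genes. Differences were above 0 for 7 of 10 genes at both times under this scaling, for 9 under quantile normalization and in the values as deposited, and for 6 when the median over every probe set, fission yeast included, was the scale. Without the 2 brightest arrays 0 members were called at either time, and 8 and 9 differences were above 0. Over all genes, 47.3% and 47.0% of differences were above 0. Those last 2 scalings moved the median of all genes to 0.28 and -0.34 at 24 h, and to 0.40 and -0.37 at 48 h. Relative to that median, the median of the 10 genes was 0.43 at 24 h and 0.48 at 48 h under both. These values equal those of the reported scaling by construction, since both scalings differ from it by a single factor per array. They are not a separate check.

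**Figure D1:**
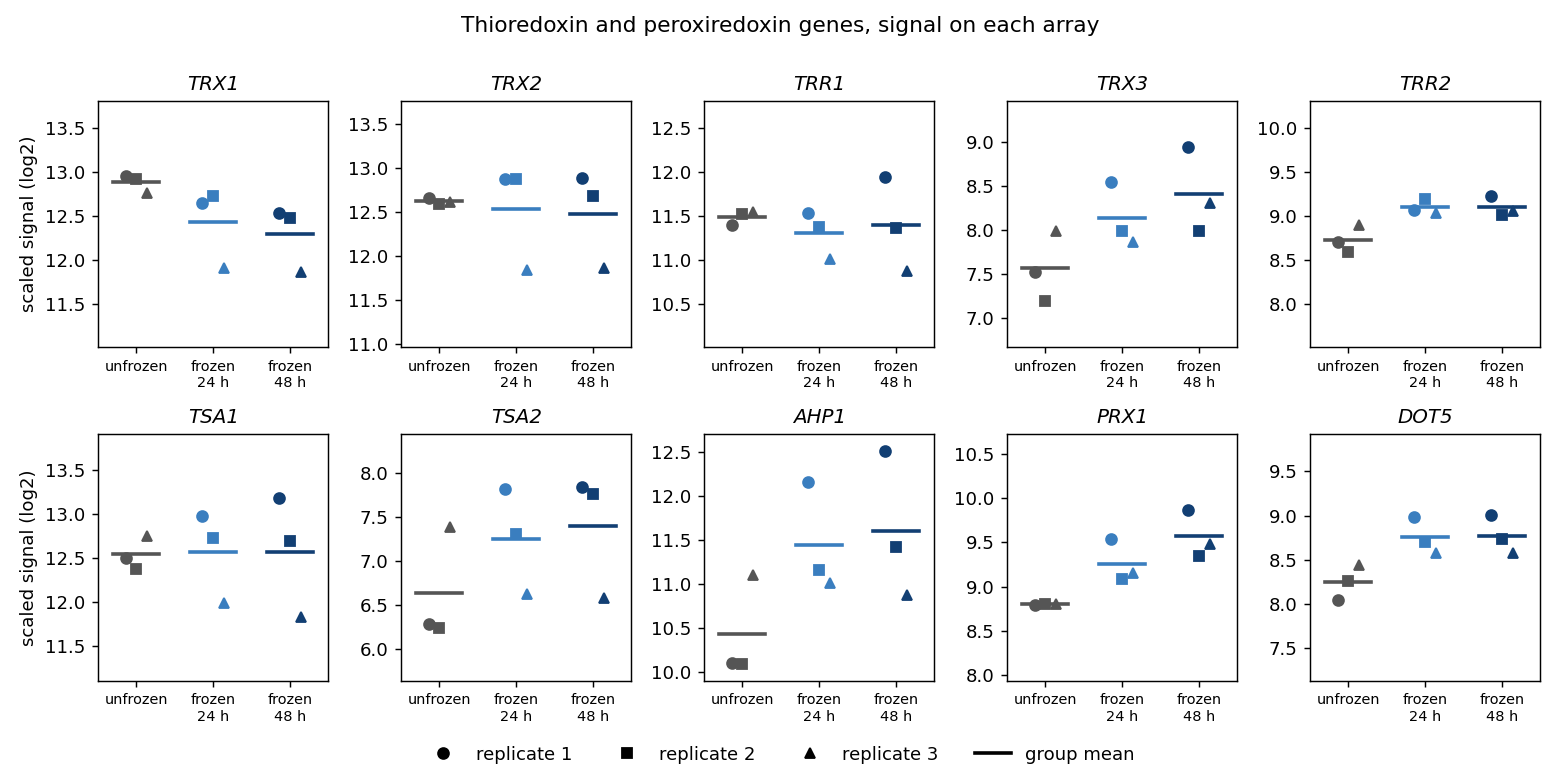
Scaled signal (log2) of each of the 10 genes on the 9 arrays, with a panel per gene, the 3 groups along the horizontal axis, a symbol per replicate number and a bar at each group mean. All panels span the same height, and PRX1, TRR2 and DOT5 lie above the unfrozen arrays on all 6 frozen arrays, whereas TRX1 lies below. Of all genes 12.2% at 24 h and 11.9% at 48 h lay above without overlap, and 11.6% and 10.6% below.

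TRX1 and TRX2 encode the paired cytosolic thioredoxins. The TRX1 signal was 12.95, 12.92 and 12.76 in unfrozen replicates 1 to 3. It was 12.64, 12.72 and 11.91 in the frozen 24 h arrays and 12.54, 12.48 and 11.86 in the frozen 48 h arrays. All 6 frozen arrays lay below the 3 unfrozen ones, as did 11.6% of all genes at 24 h and 10.6% at 48 h. The difference was -0.45 ± 0.30 at 24 h (SE with n = 3 in each group, limma adjusted p = 0.665) and -0.59 ± 0.30 at 48 h (adjusted p = 0.367). The 95% interval at 48 h ran from -1.25 to 0.08. TRX1 passed the test as lower at 48 h when the median over every probe set was the scale (-0.93, adjusted p = 0.0498), where the median of all genes was itself -0.37.

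The TRX2 signal was 12.66, 12.59 and 12.61 in the unfrozen arrays, with an SD of 0.03. It was 12.87, 12.87 and 11.84 at 24 h and 12.88, 12.68 and 11.86 at 48 h. On 4 frozen arrays it lay above every unfrozen array and on both frozen replicates 3 below, so the groups overlapped. The difference was -0.09 ± 0.36 at 24 h and -0.15 ± 0.36 at 48 h (SE, n = 3, limma adjusted p = 0.946 and 0.875), and both turned above 0 under quantile normalization (0.23 and 0.25).

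TRR1, the cytosolic thioredoxin reductase, had signals of 11.40, 11.53 and 11.55 in unfrozen arrays, 11.53, 11.37 and 11.02 at 24 h, and 11.94, 11.37 and 10.89 at 48 h. The frozen arrays spread on both sides of the unfrozen ones, with an SD of 0.53 at 48 h against 0.08 in unfrozen cells. The difference was -0.19 ± 0.27 at 24 h and -0.09 ± 0.27 at 48 h (SE, n = 3, limma adjusted p = 0.858 and 0.898), and changed sign with the scaling.

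TSA1, the main cytosolic peroxiredoxin, which also acts as a chaperone, had signals of 12.51, 12.37 and 12.76 in unfrozen arrays, 12.98, 12.73 and 11.99 at 24 h, and 13.18, 12.70 and 11.84 at 48 h. Frozen replicates 1 and 2 lay above at least 2 of the 3 unfrozen arrays and frozen replicates 3 below all of them. The difference was 0.02 ± 0.38 at 24 h and 0.03 ± 0.38 at 48 h (SE, n = 3, limma adjusted p = 0.992 and 0.981). The 95% interval at 48 h, from -0.82 to 0.88, holds changes of either direction.

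The lowest frozen values of these 4 cytosolic genes were those of the 2 brightest arrays. The mean scaled signal of frozen replicates 3 minus that of the other 4 frozen arrays was -0.71 for TRX1, -0.98 for TRX2, -0.60 for TRR1 and -0.98 for TSA1. It was also -0.87 for AHP1 and -1.08 for TSA2, and between -0.28 and -0.08 for TRX3, TRR2, PRX1 and DOT5. As a property of the probe sets and not of transcript levels, TRX1, TRX2 and TSA1 are among the 270 brightest, the top 5% by mean signal. Of those 270 genes 99.6% were lower on the 2 bright arrays, with a median of -0.91, against a median of -0.10 over all 5396 genes. TRR1, AHP1 and TSA2, also lower on the 2 bright arrays, lay outside that top 5%, at percentiles 92.4, 91.2 and 20.6 of mean signal. Without these 2 arrays the 48 h difference was -0.37 for TRX1, 0.16 for TRX2, 0.16 for TRR1 and 0.40 for TSA1 (limma adjusted p from 0.185 to 0.627). Leaving these arrays out was an alternative added after the data were seen, and the part of brightness in the differences was not tested further.

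Of the 3 mitochondrial genes 0 passed the test at either time, and their values were as follows. TRX3, the mitochondrial thioredoxin, had signals of 7.52, 7.20 and 7.99 in unfrozen arrays, 8.55, 7.99 and 7.86 at 24 h, and 8.94, 7.98 and 8.31 at 48 h. Unfrozen replicate 3 reached the lower frozen arrays, so the groups overlapped. The difference was 0.56 ± 0.29 at 24 h and 0.84 ± 0.29 at 48 h (SE, n = 3, limma adjusted p = 0.556 and 0.188).

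TRR2, the mitochondrial thioredoxin reductase, had signals of 8.71, 8.59 and 8.90 in unfrozen arrays, 9.07, 9.19 and 9.04 at 24 h, and 9.23, 9.02 and 9.06 at 48 h. Every frozen array lay above every unfrozen one, as it did for 12.2% of all genes at 24 h and 11.9% at 48 h. The difference was 0.37 ± 0.15 at both times (SE, n = 3, limma adjusted p = 0.381 and 0.245), which is 1.29-fold. With the median over every probe set as the scale it was 0.04 at 24 h and 0.03 at 48 h.

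PRX1, the mitochondrial peroxiredoxin, which has a single catalytic cysteine, had signals of 8.79, 8.80 and 8.81 in unfrozen arrays. They were 9.54, 9.08 and 9.15 at 24 h and 9.87, 9.35 and 9.49 at 48 h. All 6 frozen arrays lay above the unfrozen ones, whose SD was 0.01. Of all genes 12.2% at 24 h and 11.9% at 48 h lay above without overlap. The difference was 0.46 ± 0.18 at 24 h (SE, n = 3, limma adjusted p = 0.379) and 0.77 ± 0.18 at 48 h (adjusted p = 0.0542). At 48 h this is 1.71-fold, with a 95% interval of 0.37 to 1.18 on the log2 scale. PRX1 had the smallest p of the 10 genes at 48 h and ranked 170 of 5396 by p there. It passed under quantile normalization (0.75, adjusted p = 0.0492) and did not without the 2 brightest frozen arrays (0.81, adjusted p = 0.0689). Across 24 alternatives its adjusted p at 48 h ran from 0.0373 to 0.952, and the difference stayed between 0.43 and 1.19.

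DOT5, the nuclear thiol peroxidase, had signals of 8.04, 8.26 and 8.44 in unfrozen arrays, 8.99, 8.70 and 8.57 at 24 h, and 9.01, 8.73 and 8.57 at 48 h. The frozen arrays all lay above the unfrozen ones, as they did for 12.2% of all genes at 24 h and 11.9% at 48 h. The difference was 0.51 ± 0.18 at 24 h and 0.53 ± 0.18 at 48 h (SE, n = 3, limma adjusted p = 0.312 and 0.182). It was above 0 in all 24 alternatives at both times, though some of them cannot change the difference.

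AHP1, a cytosolic peroxiredoxin that favours organic hydroperoxides, had the largest difference of the 10 genes at both times. Its signals were 10.11, 10.10 and 11.11 in unfrozen arrays, 12.16, 11.16 and 11.01 at 24 h, and 12.51, 11.42 and 10.88 at 48 h. Unfrozen replicate 3 stood about a log2 unit above the other unfrozen arrays and above both frozen replicates 3, and the highest values were those of frozen replicates 1. In deposited units the lowest and highest values were 626 in unfrozen replicate 2 and 5029 in frozen 48 h replicate 1. The difference was 1.00 ± 0.46 at 24 h and 1.17 ± 0.46 at 48 h (SE, n = 3, limma adjusted p = 0.478 and 0.245), or 2.01-fold and 2.24-fold. Without unfrozen replicate 3 it was 1.34 at 24 h (adjusted p = 0.332) and did not pass at 48 h (adjusted p = 0.181). Without replicate 3 in every group it was 1.55 at 24 h (adjusted p = 0.0972) and 1.86 at 48 h, which passed (adjusted p = 0.0343). Without replicate 1 in every group it was 0.48 and 0.55 (adjusted p = 0.73 and 0.554).

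TSA2, a close paralogue of TSA1 that is usually less expressed, had signals of 6.29, 6.24 and 7.39 in unfrozen arrays, 7.82, 7.31 and 6.63 at 24 h, and 7.85, 7.77 and 6.58 at 48 h. As for AHP1, unfrozen replicate 3 was the highest unfrozen array and lay above both frozen replicates 3. The difference was 0.61 ± 0.44 at 24 h and 0.76 ± 0.44 at 48 h (SE, n = 3, limma adjusted p = 0.706 and 0.435). Without replicate 3 in every group it was 1.30 at 24 h and 1.54 at 48 h, and both passed (limma adjusted p = 0.0248 and 0.00861). Without replicate 1 in every group it was 0.15 and 0.36 (adjusted p = 0.932 and 0.743).

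**Figure D2:**
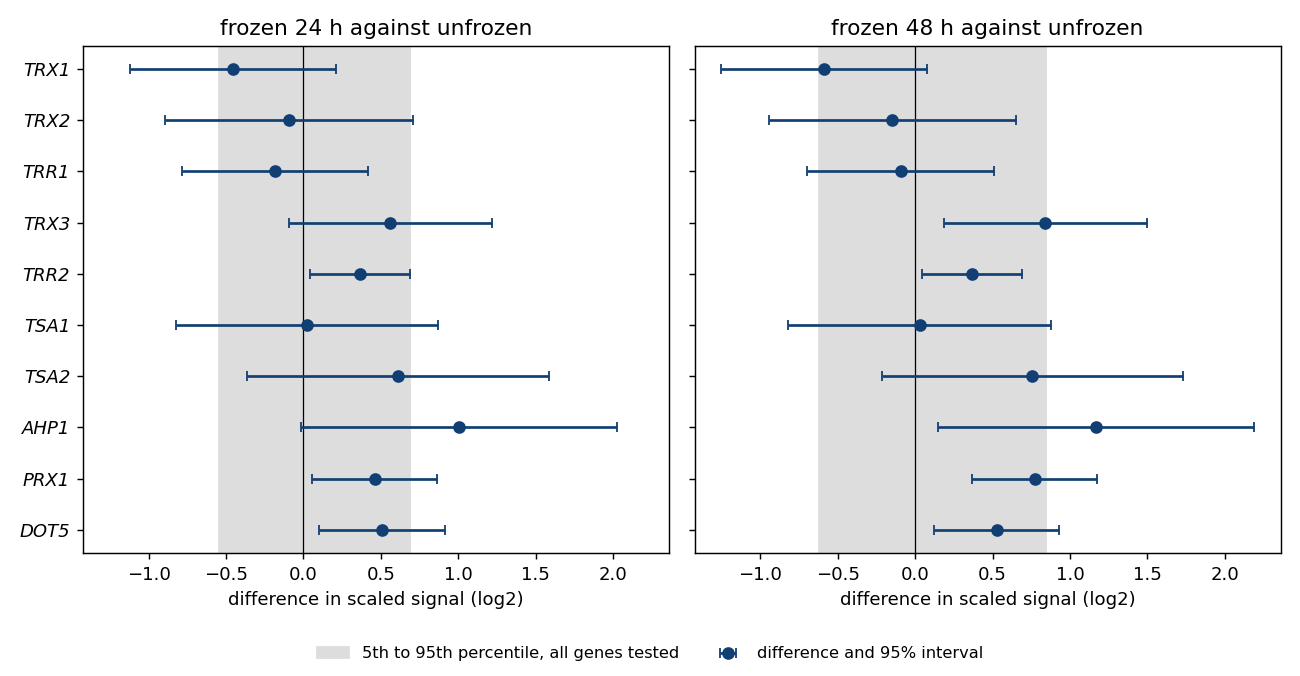
Difference in scaled signal (log2) of the 10 genes between frozen and unfrozen cells after 24 h (left) and 48 h (right), with 95% intervals from limma and n = 3 in each group. The grey band spans the 5th to 95th percentile of all genes tested (-0.55 to 0.69 at 24 h, -0.62 to 0.85 at 48 h), and only AHP1 lies outside it at both times.

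A ratio of probe sets on the same array is unaffected by a single scale factor per array, though not by quantile normalization. In this form 7 pairs of these genes were also followed, as log2 ratios set to 0 at the unfrozen mean. The pairs were chosen with the values above known. The ratio of TRX2 to TRX1 was -0.04, -0.07 and 0.11 in the unfrozen arrays, 0.49, 0.40 and 0.19 at 24 h, and 0.60, 0.46 and 0.26 at 48 h. Each frozen array lay above each unfrozen one, with mean differences of 0.36 and 0.44 (exact two-sided permutation p = 0.1 at each time, the smallest possible, and 0.14 adjusted over the 7 pairs). With 3 arrays a group this test cannot pass, and a ratio does not tell which of the paired genes moved. How often ratios of other gene pairs lie without overlap was not worked out.

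The ratio of mitochondrial TRX3 to TRX1 was higher by 1.01 at 24 h and 1.43 at 48 h, again without overlap (exact permutation p = 0.1). The ratio of TRR2 to TRR1 was higher by 0.55 at 24 h (exact permutation p = 0.1) and by 0.46 at 48 h (exact permutation p = 0.3), where frozen replicate 1, at 0.05, lay among the unfrozen arrays. Among peroxiredoxins, AHP1 relative to TSA1 was higher by 0.98 at 24 h and 1.14 at 48 h without overlap (exact permutation p = 0.1 at each time). By array this ratio was -0.29, -0.17 and 0.46 in unfrozen cells, 1.28, 0.53 and 1.13 at 24 h, and 1.43, 0.83 and 1.15 at 48 h. On this ratio frozen replicates 3 lay near the other frozen arrays, unlike the AHP1 signal alone.

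The ratio of TSA2 to TSA1 was higher by 0.59 at 24 h (exact permutation p = 0.2) and 0.73 at 48 h (exact permutation p = 0.1). For PRX1 relative to TSA1 the differences were 0.44 and 0.74 (exact permutation p = 0.2 and 0.1), and for DOT5 relative to TSA1 0.48 and 0.50 (exact permutation p = 0.1 and 0.2). In these last 2 pairs the highest ratios were those of frozen replicates 3, at 0.91 and 1.39 for PRX1 and 0.88 and 1.03 for DOT5, the arrays on which TSA1 was low. The adjusted p over the 7 pairs was at least 0.14 in each comparison. Under quantile normalization, added after the data were seen, TRX2 to TRX1 (0.31 and 0.45) and AHP1 to TSA1 (0.74 and 0.80) were still higher without overlap at both times. TRX3 to TRX1 was 0.62 at 24 h, with overlap, and 1.01 at 48 h, and TRR2 to TRR1 was 0.38 and 0.37 without overlap. The ratios of TSA2, PRX1 and DOT5 to TSA1 overlapped at both times there, and at 48 h they were 0.29, 0.35 and 0.10.

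**Figure D3:**
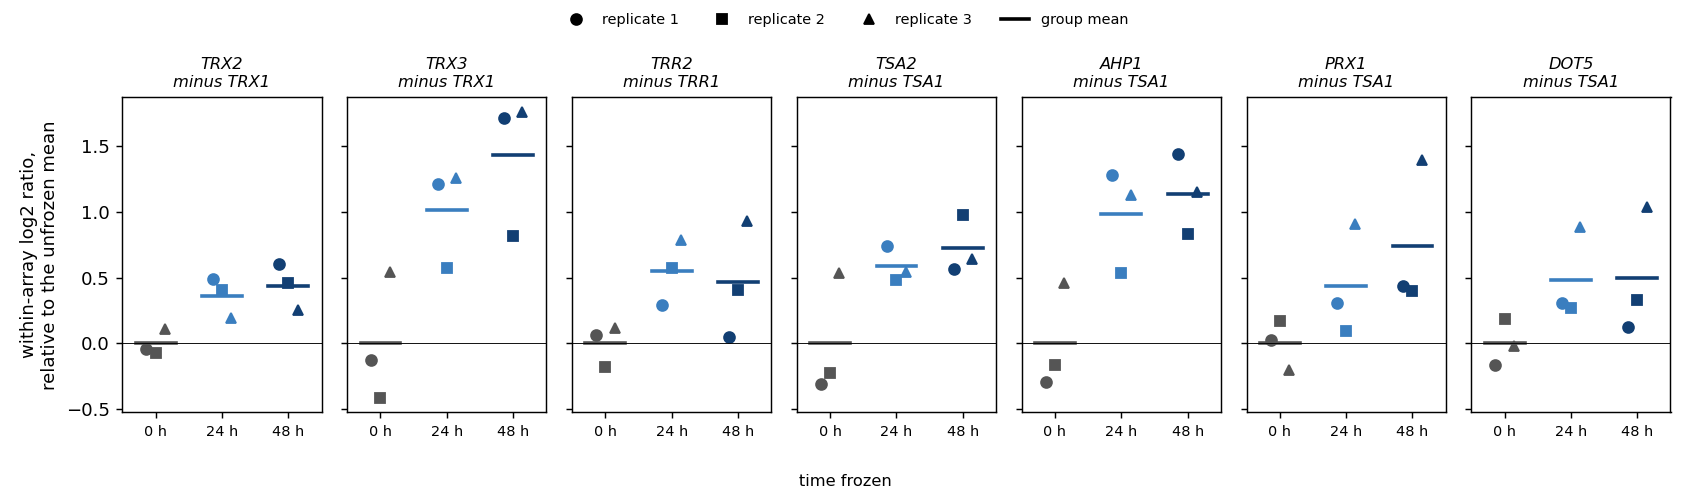
Within-array log2 ratio of 7 pairs of genes, relative to the unfrozen mean of each pair, against time frozen, with a symbol per replicate number and a bar at each group mean. Ratios of TRX2 to TRX1, TRX3 to TRX1 and AHP1 to TSA1 are above all unfrozen arrays on every frozen array under the reported scaling.

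Frozen 48 h was compared with frozen 24 h to ask whether a longer time frozen changed these genes. By limma 0 of the 10 genes differed, also 0 at an unadjusted p under 0.05, as did 0 of all 5396 genes (0%, with 0.408% at an unadjusted p under 0.05, 0.241% higher and 0.167% lower). The 24 h and 48 h arrays overlapped for all 10 members, whereas 1.59% of all genes were higher and 1.30% lower without overlap. For 8 of 10 members the difference was above 0, against 52.3% of all genes. This count was 2 without frozen 24 h replicate 3 or without frozen 48 h replicate 1, and 10 without frozen 48 h replicate 3. Differences ran from -0.13 for TRX1 to 0.31 for PRX1. The 24 h and 48 h arrays of the same replicate number varied together, so the frozen arrays were also fitted alone with the number as a block, again with 0 genes called (135 at an unadjusted p under 0.05). PRX1 was higher at 48 h by 0.33, 0.27 and 0.34 in pairs 1 to 3, with a mean of 0.31 ± 0.15 (SE, 3 pairs, limma adjusted p = 0.953). DOT5 was also above 0 in all 3 pairs, by 0.00 to 0.03, and TRX1 was below 0 in all 3, by -0.25 to -0.05. Of all genes 12.4% were higher in all 3 pairs and 11.3% lower in all 3. TRX3 differed by 0.39, -0.00 and 0.45, with a 95% interval of -0.08 to 0.64 for its mean. For TSA1 the blocked interval ran from -0.28 to 0.29, and for TRX2 from -0.33 to 0.22.

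**Figure D4:**
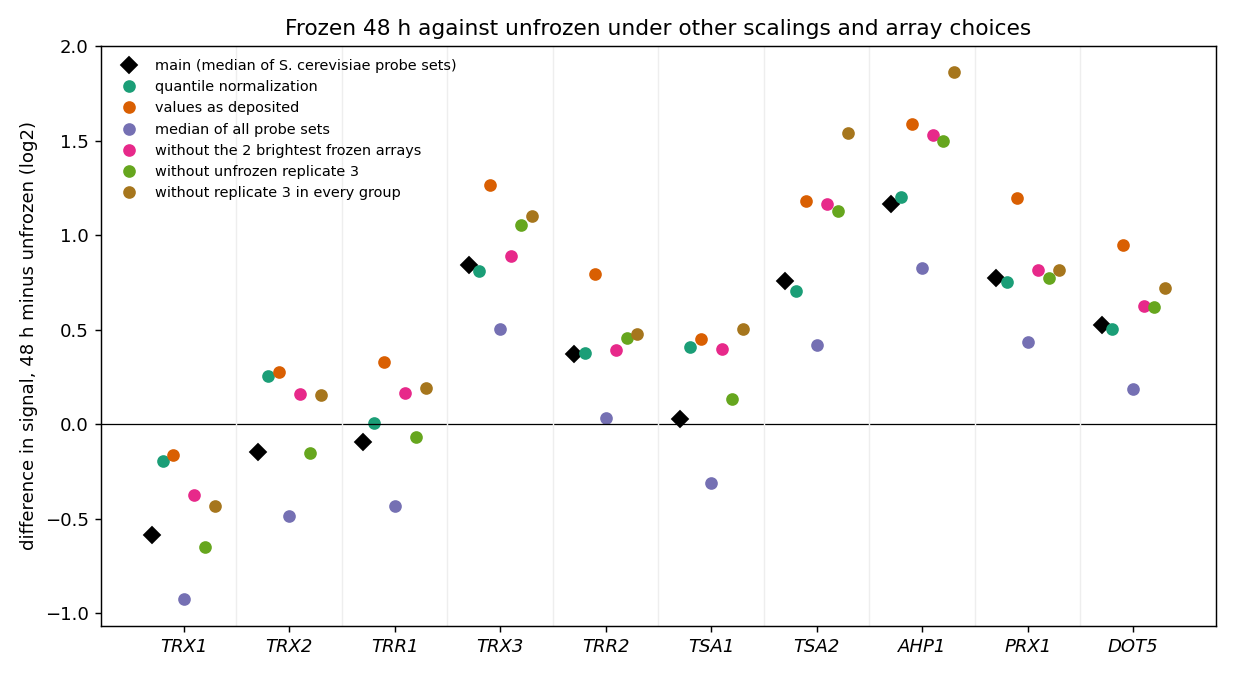
Difference at 48 h against unfrozen (log2) of the 10 genes under the reported scaling (black diamonds), 3 other scalings and 3 choices of arrays left out. TRX3, TRR2, TSA2, AHP1, PRX1 and DOT5 are above 0 in all 7 settings and TRX1 is below 0 in all 7, while TRX2, TRR1 and TSA1 lie on both sides.

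Correlations of the 10 genes over the 9 arrays are given within and between 2 sets. The sets were not fixed in advance, so the ranges do not test the split. Pairwise Pearson correlations among TRX1, TRX2, TRR1 and TSA1 ran from 0.617 (TRX1 with TSA1) to 0.922 (TRX2 with TSA1). Those among TRX3, TRR2, TSA2, AHP1, PRX1 and DOT5 ran from 0.62 (TSA2 with PRX1) to 0.951 (AHP1 with DOT5). Between the sets they ran from -0.48 (TRX1 with TRR2) to 0.775 (TSA1 with TSA2). TSA1 thus correlated more with TSA2, and with AHP1 (0.646), than with TRX1 of its own set. These values describe 9 arrays in 3 groups that share their brightness and replicate numbers. The scaled TRX1, TRX2, TRR1 and TSA1 signals had correlations of -0.834, -0.865, -0.731 and -0.692 with the log2 median brightness of the array. For the other 6 genes these ran from -0.321 to 0.196. The scaling itself subtracts that median from each signal, so part of a negative correlation can be built in. With the rRNA signal the correlation was 0.799 for TRR2 and -0.759 for TRX1, and between -0.405 and 0.63 for the other 8, and its part in the differences was not tested beyond a fit with rRNA as a covariate. In that fit limma called 0 of all genes (139 and 252 at an unadjusted p under 0.05), and the median difference of the 10 genes was 0.51 at 24 h and 0.53 at 48 h, with 9 above 0 at both times. The rRNA signal was higher on every frozen array than on every unfrozen one. That fit therefore cannot tell rRNA signal and freezing apart, and its 0 calls do not decide between them.

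The genes whose scaled signals followed each member most closely over the 9 arrays, by Pearson correlation, were picked from all 5396. They were TIR3 and RPL13B for TRX1 (0.99 and 0.989), DPH2 and AAH1 for TRX2 (0.982 and 0.976), and NMD5 and DGA1 for TRX3 (0.979 and 0.972). For TRR1 they were YPQ1 and SSH1 (0.993 and 0.991), and for TRR2 SLM5 and PIP2 (0.985 and 0.961). TSA1 was followed by YDR476C and MGR2 (0.993 and 0.988), TSA2 by YFT2 and IRC7 (0.992 and 0.978), and AHP1 by FRE6 and FRM2 (0.99 and 0.986). PRX1 was followed by FPR3 and CRG1 (0.968 and 0.966), and DOT5 by PRM7 and NCA3 (0.981 and 0.976). None of the 20 was another member.

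Partners of the system were read from 5 lists, some of which share genes, and the lists were drawn up with results of these arrays known. Among 7 regulators of the peroxide response, 0 changed at either time, with a median difference of 0.35 at 24 h and -0.01 at 48 h. YAP1, the activator of many of the members, stood at 0.47 ± 0.26 at 24 h (SE, n = 3, limma adjusted p = 0.573). GPX2, a thiol peroxidase reduced by thioredoxin, stood at 0.96 ± 0.42 at 24 h and 1.12 ± 0.42 at 48 h (limma adjusted p = 0.46 and 0.226), and passed without unfrozen replicate 3 (1.49 and 1.66, adjusted p = 0.0496 and 0.025). HYR1, the peroxide sensor that oxidises Yap1, stood at 0.54 ± 0.20 at 48 h. Among 9 genes for enzymes that draw electrons from thioredoxin, or for subunits of such enzymes, 0 changed, with medians of 0.30 and 0.24. RNR3, a ribonucleotide reductase subunit induced by DNA damage, stood at 1.34 ± 0.50 at 24 h, and MXR2, the mitochondrial methionine sulfoxide reductase, at 0.41 ± 0.16 and 0.57 ± 0.16 (limma adjusted p = 0.341, 0.368 and 0.101).

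The parallel glutathione and glutaredoxin list had 0 of 14 genes called at either time, with medians of 0.15 and 0.14. The peroxidase GPX1 stood at 0.68 ± 0.24 at 24 h and 0.79 ± 0.24 at 48 h, GTT2 at 0.66 ± 0.29 at 24 h and GTT1 at 0.80 ± 0.35 at 48 h, the last 2 being glutathione transferases. Other targets of Yap1 had 0 of 15 called, with a median of 0.09 at both times. OYE3, an old yellow enzyme, stood at 1.37 ± 0.40 and 1.20 ± 0.40, and the peroxisomal catalase CTA1 at 1.24 ± 0.44 at 48 h.

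The list of NADPH supply holds genes linked to NADPH, the electron source of thioredoxin reductase. Not all encode enzymes that form NADPH, and of the called genes NQM1 and SOL4 do not. Of the 19 genes 1 rose at 24 h and 5 rose at 48 h, and 0 fell. At 48 h the split was 3 higher and 1 lower (RKI1, -0.70, limma adjusted p = 0.0483) with the median over every probe set as the scale. It was 1 higher and 1 lower (IDP1, -0.89, adjusted p = 0.0314) without frozen 48 h replicate 1. Over all genes 0.797% and 2.09% were called higher. NQM1, a transaldolase, rose by 2.05 ± 0.27 after 24 h frozen and by 2.32 ± 0.27 after 48 h (SE, n = 3, limma adjusted p = 0.0121 and 0.00264). Its signals were 6.48, 6.09 and 7.08 in unfrozen arrays, 8.51, 8.56 and 8.73 at 24 h, and 8.49, 8.77 and 9.32 at 48 h, so the groups were far apart. At 48 h GND2, a 6-phosphogluconate dehydrogenase, rose by 1.71 ± 0.38, SOL4, a 6-phosphogluconolactonase, by 1.35 ± 0.31, ALD4, a mitochondrial aldehyde dehydrogenase, by 1.18 ± 0.25, and IDP2, the cytosolic isocitrate dehydrogenase, by 0.91 ± 0.20 (limma adjusted p from 0.039 to 0.0478). The median of the list was -0.19 at 24 h and 0.14 at 48 h. The 48 h count was 2 under quantile normalization, 1 in the values as deposited, 1 without any 1 of the 3 unfrozen arrays, and 0 without replicate 2 in every group or with rRNA as a covariate. With arrays or numbers left out, 48 h differences ran from 2.08 to 2.58 for NQM1, 1.4025 to 2.22 for GND2, 0.99 to 1.78 for SOL4, 0.88 to 1.37 for ALD4 and 0.78 to 1.01 for IDP2. Without replicate 2 in every group NQM1 was 2.13 (limma adjusted p = 0.267), and with rRNA as a covariate 2.09 (adjusted p = 0.311). NQM1 passed in 22 of 24 alternatives at 48 h, all but those last 2, and in 18 of 24 at 24 h. The rRNA signal was higher on every frozen array, so the fit with it as a covariate cannot tell it apart from freezing. Between 48 h and 24 h 0 genes of any of the 5 lists differed. The genes with the smallest p there were SOL4 (0.50 ± 0.31), ALD4 (0.36 ± 0.25), SRX1 (-0.81 ± 0.73), HYR1 (0.19 ± 0.20), RNR1 (-0.25 ± 0.23), MXR2 (0.16 ± 0.16), GSH1 (0.27 ± 0.20), GRX1 (-0.16 ± 0.18) and LOT6 (-0.26 ± 0.21).

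**Figure D5:**
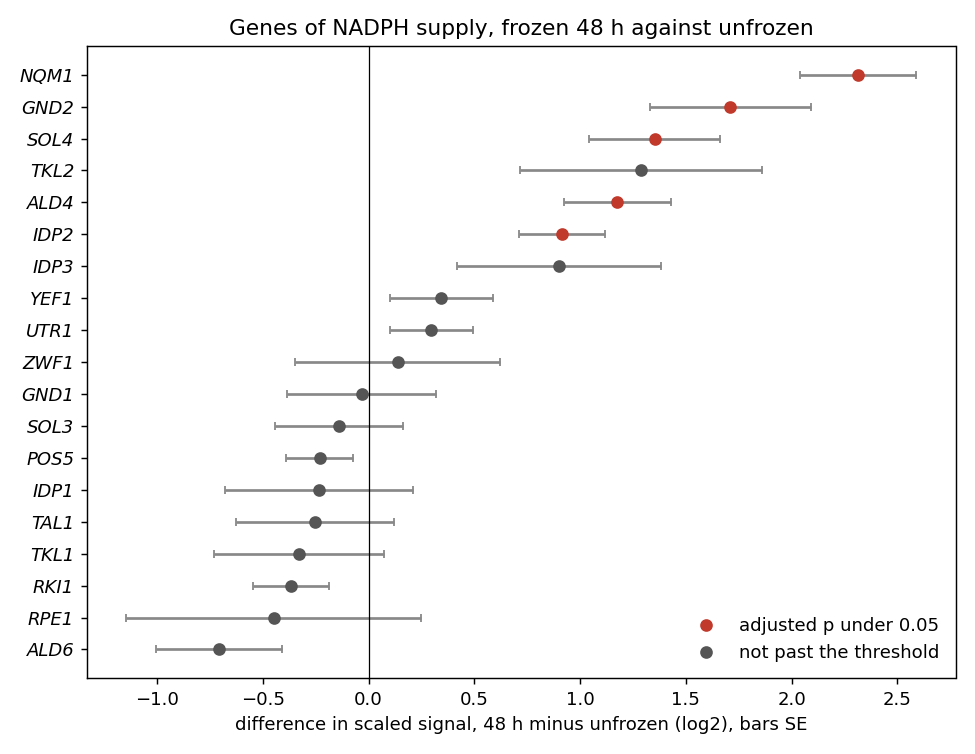
Difference in scaled signal at 48 h against unfrozen (log2) of the 19 genes of NADPH supply, ordered by value, with bars for the SE and n = 3 in each group. The 5 genes in red passed the test, from IDP2 at 0.91 to NQM1 at 2.32.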

How the data were processed

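The authors hybridised poly(A)-enriched RNA to Affymetrix Yeast Genome 2.0 arrays, with 1 sample and 1 colour per array, per the labels. The deposited values are a linear intensity per probe set, credited to GCOS in the submitters' processing notes with no version named. The labels also name GeneSpring 7.3.1, per-chip scaling to the 50th percentile and per-gene division by unfrozen samples. Neither step is seen in the deposited values. Fission yeast probe sets (1746) served as background. Probe sets were named from the platform's annotation by way of its gene identifiers and the R64 RefSeq table, and no coordinates were used.

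Values were taken to log2, scaled as described, kept if their mean exceeded the 95th percentile of background (4.64 on the linear scale), and 1 probe set, that with the highest mean, stood for each gene. This left 5396 genes, and all 10 members passed. Groups were compared with limma 3.58.1 in R 4.3.3 (all 9 arrays, trend, two-sided). Single ratios were compared with exact permutation tests. The number of arrays limits the precision. The procedure was tested on simulated data.

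The members and lists were chosen with earlier results of these data known. Named are all members, list genes past the threshold or else the 2 with the smallest p, and the 2 genes most correlated with each member. Alternatives were other scalings, a pseudocount of 1, the filter left out or raised to the 99th percentile, no trend, only the groups compared, a replicate block, averaged probe sets, and each array or replicate number left out. Added after the data were seen were the 2 brightest frozen arrays left out, rRNA as a covariate, pair ratios under quantile normalization, and the frozen arrays alone with a replicate block. The data, not the labels, pair 24 h with 48 h arrays by number, since deviations from group means correlated at 0.589, 0.389 and 0.793. Arrays of a group correlated at 0.898 to 0.988, no pair of arrays shared over 0.00915% of values, and 0 columns were left unused.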

Additional observations from a re-analysis of the deposited data

How the results depend on the processing

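The count of members called at 24 h stayed at 0 in every alternative except without replicate 3 in every group, where it was 1 (TSA2). At 48 h it was 1 under quantile normalization (PRX1), in the values as deposited (AHP1), with the median over every probe set as the scale (TRX1, lower) and with a replicate block (PRX1 at 0.77, adjusted p = 0.0373), and 2 without replicate 3 (TSA2 and AHP1). Leaving out arrays or numbers gave 0 to 1 members at 24 h and 0 to 2 at 48 h. The numbers do not pair frozen with unfrozen arrays (correlations of deviations from -0.382 to 0.247), so the blocked fits are given here alone.

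Genes called overall (54 at 24 h, 157 at 48 h) were 34 and 54 in the values as deposited, 118 and 84 with only the groups compared, and 0 and 0 with rRNA as a covariate (139 and 252 at an unadjusted p under 0.05). They were 113 at 24 h with a replicate block and 265 at 48 h with the median over every probe set as the scale. Leaving out arrays or numbers gave 0 to 126 at 24 h and 0 to 232 at 48 h, lowest without replicate 2 and highest without replicate 3. The split of higher against lower calls was 43 to 11 and 113 to 44, and 19 to 45 and 57 to 208 with that scale. Without replicate 2, 211 and 403 genes had an unadjusted p under 0.05. The fit with rRNA as a covariate cannot tell rRNA signal and freezing apart, since that signal was higher on every frozen array.

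Called genes of NADPH supply, 1 at 24 h and 5 at 48 h, were 2 at 24 h and 1 at 48 h with only the groups compared, 2 at 24 h without the 2 brightest arrays, 0 and 0 with rRNA as a covariate, and at 48 h 2 under quantile normalization and 1 in the values as deposited. Leaving out arrays or numbers gave 0 to 3 at 24 h and 0 to 6 at 48 h. That range was 0 to 1 for peroxide regulators at both times (GPX2, without unfrozen replicate 3 at both times), 0 to 1 at 24 h and 0 to 2 at 48 h for thioredoxin clients (GPX2 and RNR3), and 0 to 1 at both times for glutathione and glutaredoxin genes (GTT1 without replicate 3, GPX1 without unfrozen replicate 3). Thioredoxin clients were 1 at 48 h without the 2 brightest arrays (RNR3).

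TRX3, TRR2, TSA2, AHP1, PRX1 and DOT5 kept their direction against unfrozen in all 24 alternatives at both times. That count holds alternatives that cannot change a difference: other filters, no trend, only the groups compared, a replicate block and averaged probe sets. Leaving out an array of the group not compared cannot change it either. Signs turned as follows. Under quantile normalization TRX2 was 0.23 at 24 h, 0.25 at 48 h and 0.022 for 48 h against 24 h, TRR1 0.0044 and 0.0083, and TRR2 -0.0051 for 48 h against 24 h. In the values as deposited TRX2 was 0.20, 0.28 and 0.072, and TRR1 0.11 and 0.33. With the median over every probe set as the scale TSA1 was -0.30, -0.31 and -0.0090, and TRR2 -0.0092 for 48 h against 24 h. Without the 2 brightest frozen arrays TRX2 was 0.25 and 0.16, TRR1 0.16 at 48 h and TRR2 -0.0029 for 48 h against 24 h. With rRNA as a covariate TRX1 was 0.038 at 24 h, TRX2 0.52 and 0.41, TRR1 0.051 at 48 h, and TSA1 -0.043 for 48 h against 24 h. The cause of these turns was not tested.

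With arrays or numbers left out, TRX2 ran from -0.28 to 0.25 at 24 h and -0.35 to 0.16 at 48 h, TSA1 from -0.20 to 0.42 and -0.29 to 0.50, and TRR1 from -0.41 to 0.19 at 48 h. For 48 h against 24 h the ranges were -0.29 to 0.52 for AHP1, -0.10 to 0.14 for DOT5, -0.18 to 0.35 for TRR1, -0.077 to 0.092 for TRR2, -0.39 to 0.081 for TRX1, -0.40 to 0.25 for TRX2, -0.30 to 0.37 for TSA1 and -0.17 to 0.56 for TSA2.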

Other observations

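In the NADPH list, 3 of the 5 genes called higher at 48 h have a paralogue that carries the main activity in growing cells. These paralogues, named after their values were seen, did not pass the test. The calls of GND2 and SOL4 were themselves lost in several alternatives. GND1 stood at -0.19 ± 0.35 at 24 h and -0.03 ± 0.35 at 48 h (SE, n = 3, limma adjusted p of at least 0.893), beside 1.56 ± 0.38 and 1.71 ± 0.38 for GND2. SOL3 stood at -0.23 ± 0.30 and -0.14 ± 0.30, beside 0.86 ± 0.31 and 1.35 ± 0.31 for SOL4. TAL1 stood at -0.28 ± 0.37 and -0.25 ± 0.37, beside 2.05 ± 0.27 and 2.32 ± 0.27 for NQM1. Of genes in the list related to ALD4 and IDP2, ALD6 stood at -0.63 ± 0.30 and -0.71 ± 0.30. IDP1 stood at -0.34 ± 0.45 and -0.23 ± 0.45, and IDP3 at 0.80 ± 0.48 and 0.90 ± 0.48. These did not pass the test under the reported scaling. GND1 and TAL1 were low on frozen replicates 3, at 11.34 and 11.61 for GND1 and 11.54 and 11.46 for TAL1, as TRX1, TRX2 and TSA1 were. ZWF1, the first enzyme of the pentose phosphate pathway, stood at -0.19 ± 0.49 and 0.14 ± 0.49. The difference in response between paralogues was not tested.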
